A study of Mus musculus with 18 samples.

Results

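mmu-mir-9, mmu-mir-218, mmu-mir-153 and mmu-mir-129 are 4 of the 1006 mouse miRNA precursor entries counted by small RNA sequencing in Baf3, a pro-B cell line that depends on interleukin-3. They are best known from neurons and were chosen by measured values: each was near-silent in control cells and higher in both knockouts of the study. Their differences from control are therefore given as a description, without a test. All 4 passed the filter on low counts, which kept 273 entries. mmu-mir-153 and mmu-mir-129 passed through ERH libraries alone: 4 and 3 ERH libraries, and no SAFB or control library, exceeded the limit of 2.86 CPM, the usual depth-scaled count, where 3 were needed.

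The 18 libraries came from 6 polyclonal populations, 2 guide RNAs for each of 3 genotypes, with 1 library per population in each of 3 labelled batches. All cells carried Cas9, fluorescent reporters that report on altered miR-15a and miR-16, and 1 guide RNA. Control cells were labelled Rag1_KO, after a gene with no role in making miRNAs. SAFB cells were labelled as lacking Safb1 and Safb2, and ERH cells as lacking Erh. After puromycin selection, knockout cells were sorted for a derepressed miR-15a reporter and regrown before total RNA was taken; how control cells were sorted is not given in the labels. The libraries of 1 population share their edited cells, so p-values over libraries measure the spread between libraries more than between independent knockouts. Small RNA libraries do not measure the messenger RNA of the targeted genes, so the labels could not be checked that way.

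A primary miRNA transcript folds into a hairpin that the Microprocessor, made of Drosha and DGCR8, cuts in the nucleus and Dicer cuts again in the cytoplasm. The mature strand then finds its targets mainly through its seed, bases 2 to 8. ERH binds DGCR8, and ERH and the SAFB proteins help the Microprocessor cut poor hairpins that lie beside a better one, which is called cluster assistance. miR-9 acts in neural progenitors and in the neurons made from them, and miR-218 is abundant in motor neurons. miR-153 and miR-129 are typical of brain and act on synaptic and excitability genes in neurons.

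The main mature strand of each entry is shown because these sequences set whether the entries can share reads or targets; capitals mark the seed, and the sequences are from RefSeq on GRCm38.p6.
miR-9-5p: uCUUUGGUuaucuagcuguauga
miR-218-5p: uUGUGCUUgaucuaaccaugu
miR-153-3p: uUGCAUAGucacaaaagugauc
miR-129-5p: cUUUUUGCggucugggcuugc

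The 4 seeds differ from each other, so the entries belong to 4 seed families. Among 1679 mature mouse sequences, the only other one with any of these seeds was miR-7002-3p, which has that of miR-218-5p and is not analysed here. The entries sum over gene copies: 3 for mir-9, 2 for mir-218, 1 for mir-153 and 2 for mir-129. The copies of an entry have identical main strands, so their shares of the count cannot be told apart. The 3p strands of the mir-218 copies do differ, and are shown because they alone could separate the copies if strands were counted apart.
miR-218-1-3p: aAACAUGGuuccgucaagcacc
miR-218-2-3p: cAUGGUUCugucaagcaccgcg

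The 8 gene copies lie on 8 chromosomes of GRCm38.p6. Mir9-1 is at chr3:88215598-88215686 in an intron of the long noncoding RNA Gm3764, Mir9-2 at chr13:83738814-83738885 over an exon of the noncoding C130071C03Rik, and Mir9-3 at chr7:79505264-79505353 in an intron of Mir9-3hg. Mir218-1, at chr5:48223942-48224051, and Mir218-2, at chr11:35616816-35616925, lie in introns of Slit2 and Slit3, which encode axon guidance ligands. Mir153 is at chr12:117250817-117250885 in an intron of Ptprn2, which encodes a protein of secretory granules. Mir129-1 is at chr6:29022619-29022691 over an exon of the noncoding Gm3294, and Mir129-2 is on the minus strand at chr2:94241364-94241453 in an intron of Mir670hg. The other 7 copies are on the plus strand. Only Mir9-1 has another annotated miRNA gene within 10 kb on its own strand, Mir3093. The opposite strand of Mir129-2 holds Mir129b, and the entries of the antisense miRNAs mir-9b and mir-129b had at most 4 and 6 counts in any library.

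The hairpins of the mir-218 entry are shown because it is the most abundant of the 4 and the one that differed between guides; capitals mark miR-218-5p.
Mir218-1: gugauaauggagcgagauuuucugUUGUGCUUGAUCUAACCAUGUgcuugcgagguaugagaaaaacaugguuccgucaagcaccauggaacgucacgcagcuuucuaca
Mir218-2: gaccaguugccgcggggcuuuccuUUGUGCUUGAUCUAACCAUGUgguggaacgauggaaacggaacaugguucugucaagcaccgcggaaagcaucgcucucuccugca

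Folded with ViennaRNA, the hairpins of the 8 copies had minimum free energies from -0.533 kcal/mol per base in Mir129-2 to -0.333 in Mir218-1. The median of 1005 mouse hairpins was -0.406, with quartiles at -0.465 and -0.342. The copies thus lay on both sides of the median, with Mir218-1 less stable than 77.5% of the hairpins and Mir129-2 less stable than 10.4%. The letters UGUG, read on the transcript strand, were in 4 of the 8 copies, including both of mir-218 within the mature strand, and in 44.9% of all hairpins.

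The 4 entries together made up 0.00291% ± 0.000978 (SD, n = 6 libraries) of miRNA counts in control, 0.0269% ± 0.00574 in SAFB and 0.130% ± 0.0589 in ERH cells. In each entry the means ran in the order control, SAFB, ERH, and the rise from control had chosen the entries. SAFB and ERH libraries did not overlap in any of the 4. For mir-153 and mir-129 the filter, passed through ERH libraries alone, had favoured this. How many of all entries separate in this way was not counted, so nothing is read from it. SAFB means were 25.4%, 24.5%, 18.9% and 26.1% of the ERH means for mir-9, mir-218, mir-153 and mir-129, whose ERH means ran from 2.92 to 877.0 CPM. The pooled ratios of ERH to SAFB behind the rare pair had exact 95% counting intervals of 3.18 to 9.08 for mir-153 and 2.22 to 7.01 for mir-129. A higher ERH level was built into the selection of this pair, so the intervals show counting error and do not test the difference. CPM here are counts scaled by library size and the trimmed mean of M-values (TMM), and are compared between libraries, not as molecules per cell. In such bulk RNA, fewer cells of a type and less RNA per cell cannot be told apart.

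**Figure D1:**
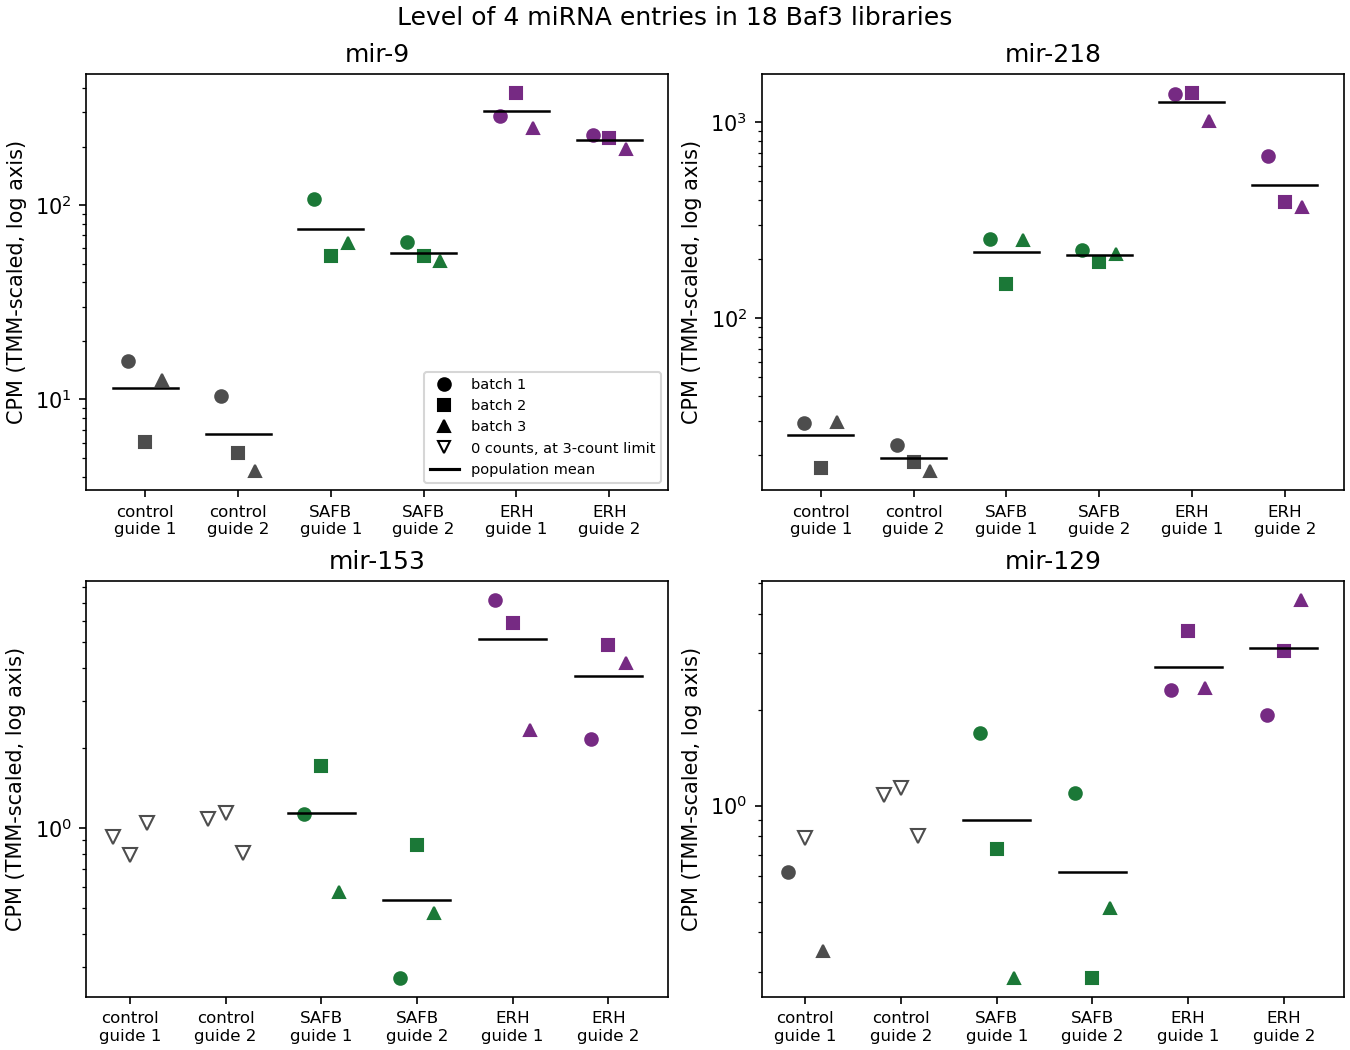
CPM of the 4 entries on log axes, in each of the 18 libraries, by population; filled symbols are libraries by batch, bars are population means, and open triangles stand for 0 counts at the limit of 3 counts. For every entry the 6 ERH libraries sit above the 6 SAFB libraries, which the filter had favoured for mir-153 and mir-129. The ERH guide 1 libraries lie above those of guide 2 for mir-9 (means 304.2 against 215.3 CPM) and mir-218 (1275 against 479.3 CPM).

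mir-9, which restrains progenitor genes during neurogenesis, was present in every library. In control it was at 15.7, 6.06 and 12.6 CPM with guide 1 and 10.4, 5.30 and 4.28 CPM with guide 2, in batches 1, 2 and 3. In SAFB it was at 106.8, 54.5 and 63.8 CPM with guide 1 and 64.4, 54.5 and 51.6 CPM with guide 2. In ERH it was at 286.0, 376.4 and 250.1 CPM with guide 1 and 230.3, 221.1 and 194.5 CPM with guide 2. The 3 genotypes did not overlap, the batch 1 library of SAFB guide 1 stood above the other SAFB libraries, and the 3 libraries of ERH guide 1 were above the 3 of ERH guide 2. Means were 9.06 ± 4.58 CPM (SD, n = 6) in control, 65.9 ± 20.7 in SAFB and 259.8 ± 64.8 in ERH. The control counts behind them, 14 to 51 reads per library, were above 0 in all 6 libraries.

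mir-218, processed from introns of the Slit genes, was the most abundant of the 4. In control it was at 29.3, 17.1 and 29.7 CPM with guide 1 and 22.7, 18.5 and 16.6 CPM with guide 2, in batches 1, 2 and 3. In SAFB it was at 253.3, 149.8 and 251.3 CPM with guide 1 and 224.3, 194.9 and 213.0 CPM with guide 2. In ERH it was at 1395, 1411 and 1018 CPM with guide 1 and 676.2, 391.3 and 370.3 CPM with guide 2. The genotypes again did not overlap, and within ERH the libraries of guide 1 again all exceeded those of guide 2. Means were 22.3 ± 5.95 CPM (SD, n = 6) in control, 214.4 ± 38.8 in SAFB and 877.0 ± 470.3 in ERH.

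mir-153, known for dampening synaptic vesicle genes, was seen in knockout libraries alone. Control libraries had 0 counts in all 6, which allows up to 0.791 to 1.14 CPM in a single library at a limit of 3 counts. SAFB libraries had 4, 7 and 2 counts with guide 1 and 1, 3 and 2 counts with guide 2, in batches 1, 2 and 3. ERH libraries had 28, 20 and 7 counts with guide 1 and 9, 16 and 16 counts with guide 2. Every knockout library thus held the entry, at 0.838 ± 0.521 CPM (SD, n = 6) in SAFB and 4.43 ± 1.97 in ERH. With 3 counts set in place of the 0 of the control group, pooled levels were 5.38-fold higher in SAFB and 28.2-fold higher in ERH. The counts per library are small, and these ratios take the knockout counts without error, so they are not strict lower bounds. The entry was also chosen for its rise from control, so the ratios describe that rise and do not test it.

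mir-129, which represses ion channel and synaptic genes in neurons, had the lowest ERH mean. Control libraries had 2, 0 and 1 counts with guide 1 and 0 counts in all 3 libraries of guide 2. SAFB libraries had 6, 3 and 1 counts with guide 1 and 4, 1 and 2 counts with guide 2. ERH libraries had 9, 12 and 7 counts with guide 1 and 8, 10 and 17 counts with guide 2. SAFB and control overlapped, since 1 control library had more counts than 2 of the SAFB libraries. Every ERH library was above every other library, which the filter through ERH libraries had favoured. Means were 0.161 ± 0.264 CPM (SD, n = 6) in control, 0.762 ± 0.547 in SAFB and 2.92 ± 0.931 in ERH. From the 3 control counts, the pooled ratio to control was 4.82 for SAFB, with an exact 95% counting interval of 1.39 to 25.7, and 18.5 for ERH, with an interval of 6.05 to 92.2. The entry was chosen for its rise from control. The intervals thus describe counting error and do not test that rise.

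Against control, the fitted log2 fold changes of mir-9 were 2.87 in SAFB and 4.85 in ERH, and those of mir-218 were 3.27 and 5.30. As background, edgeR's quasi-likelihood test, at an adjusted p under 0.05, called 30.8% of the 273 entries higher in SAFB than in control and 25.3% lower. For ERH the shares were 26.4% higher and 27.5% lower. In numbers, 84 rose and 69 fell in SAFB, and 72 rose and 75 fell in ERH; with total counts these were 90 and 66, and 108 and 33, and with spike-ins 44 and 58, and 72 and 19. All 4 entries were chosen on these contrasts, so nothing is read from their place in them.

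The direct comparison of the knockouts, which did not choose the entries although its results had been seen, asks whether loss of ERH and loss of SAFB go with different levels. The ERH level of mir-9 exceeded its SAFB level with a log2 fold change of 1.98 (SE 0.227, adjusted p = 3.9e-07, edgeR, 6 against 6 libraries), and for mir-218 this was 2.03 (SE 0.273, adjusted p = 4.2e-06). As background, 23.8% of the 273 entries were called higher in ERH than in SAFB, and the median log2 fold change over all was 0.042. For mir-153 the difference was 2.34 (SE 0.460, adjusted p = 0.00051), and for mir-129 it was 1.89 (SE 0.475, adjusted p = 0.0026). These last values describe entries that entered the test through their ERH libraries, so a difference from SAFB was built into their selection.

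The size of the difference depended on the scaling between libraries. TMM gave 65 entries higher and 43 lower in ERH than in SAFB, total counts gave 115 and 8, and spike-in counts gave 111 and 1. The median over all entries moved to 0.31 with total counts and 0.57 with spike-ins. With spike-ins mir-9 and mir-218 were 2.46 and 2.41 higher. mir-153 and mir-129, which entered through their ERH libraries, were at 2.85 and 2.40.

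Both populations and all batches gave the same direction. ERH against SAFB, the ratio of pooled CPM was 3.01, 5.51 and 3.83 for mir-9 in batches 1, 2 and 3, and 4.29, 5.35 and 2.84 for mir-218. It was 6.61, 4.07 and 6.42 for mir-153, and 1.52, 6.22 and 8.93 for mir-129. The ratio of mir-129 was lowest in batch 1. Its edgeR adjusted p was 0.058 without batch 2 and 0.079 without batch 3, in a test that it had entered through its ERH libraries. With the libraries of each population summed, 2 populations against 2, the edgeR adjusted p was 0.00011 for mir-9 and 0.00094 for mir-218. The mir-218 difference was 1.16 without the ERH guide 1 population and 2.55 without ERH guide 2.

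**Figure D2:**
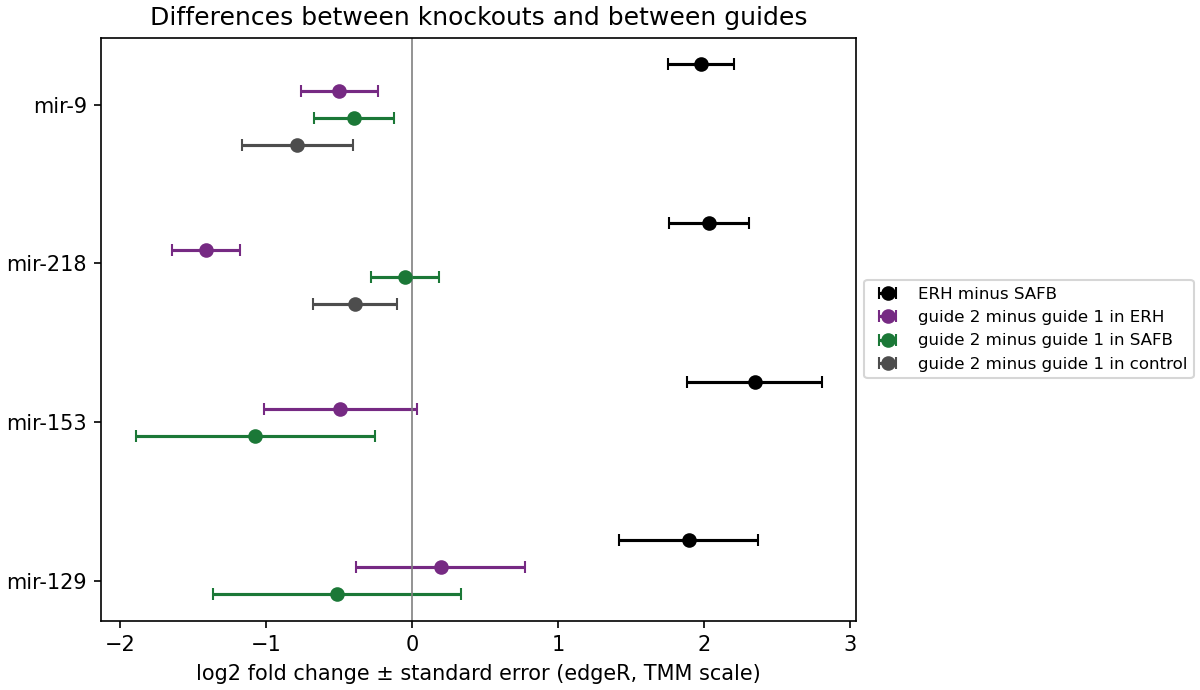
Log2 fold changes with standard errors from edgeR for the 4 entries; black points are ERH minus SAFB, and coloured points are guide 2 minus guide 1 within a genotype (control is left out for mir-153 and mir-129, which were nearly all at 0 there). The black points lie between 1.89 and 2.34, and the ERH guide difference of mir-218 (-1.41) is the guide difference farthest from 0 in units of its error.

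Guides of the same genotype were compared to see how far independently edited populations differ. mir-218 was lower with ERH guide 2 (479.3 ± 170.8 CPM, SD, n = 3) than with ERH guide 1 (1275 ± 222.0). The log2 fold change was -1.41 (SE 0.232, adjusted p = 0.0016, edgeR, 3 against 3 libraries). It was the only one of the 273 entries called between the ERH guides, 0.366%, where 18 had an unadjusted p under 0.05. Without batch 2 the fold change was -1.22 with an adjusted p of 0.089, and with spike-in scaling it was -0.76 with an adjusted p of 0.0499, on which scale 110 entries were called between these guides.

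The other entries were not called between the ERH guides. mir-9 was at 304.2 ± 65.1 CPM (SD, n = 3) with guide 1 and 215.3 ± 18.6 with guide 2, a log2 fold change of -0.50 (SE 0.262, adjusted p = 0.85, edgeR) that was 0.11 with spike-in scaling. mir-153 differed by -0.49 (SE 0.521, adjusted p = 0.99), which was 0.15 with spike-ins, and mir-129 by 0.19 (SE 0.581, adjusted p = 0.99), which was 0.76 with spike-ins (adjusted p = 0.33). Standard errors this wide leave differences of either sign possible for the pair of rare entries.

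Between the SAFB guides 0 of 273 entries, 0%, were called by edgeR, with 10 at an unadjusted p under 0.05 and 0 called by DESeq2. There mir-218 differed by -0.048 (SE 0.232, adjusted p = 0.93) and mir-9 by -0.40 (SE 0.274, adjusted p = 0.87). Between the control guides 0 of 273 were called as well, with 7 at an unadjusted p under 0.05 and 0 by DESeq2, although spike-in scaling called 96. mir-218 differed there by -0.39 (SE 0.290, adjusted p = 0.97), which was 0.24 with spike-ins, and mir-9 by -0.79 (SE 0.381, adjusted p = 0.97).

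Whether the guide difference of mir-218 was particular to ERH was tested as a difference of differences, added after the values were seen. The ERH guide difference minus that of SAFB was -1.36 (SE 0.326, adjusted p = 0.13, edgeR), and minus that of control it was -1.02 (SE 0.370, adjusted p = 0.99). No entry was called in either comparison, 0%, with 12 and 7 entries at an unadjusted p under 0.05. The difference of mir-218 between genotypes in its guide effect thus did not pass the correction over all entries.

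Scaling between libraries cancels in the ratio of mir-218 to mir-9 counts. It was 1.86, 2.83 and 2.36 with control guide 1 and 2.17, 3.50 and 3.88 with control guide 2, in batches 1, 2 and 3. It was 2.37, 2.75 and 3.94 with SAFB guide 1 and 3.49, 3.58 and 4.13 with SAFB guide 2. It was 4.88, 3.75 and 4.07 with ERH guide 1 and 2.94, 1.77 and 1.90 with ERH guide 2. The ratio thus stayed within a few units while both entries varied over more than an order of magnitude, and the ERH populations took the highest and the lowest values of all 18 libraries. The log2 ratio of mir-9 to mir-218 was 0.97 higher with ERH guide 2 than with guide 1, with an exact permutation p of 0.1, the smallest that 3 against 3 libraries can give.

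**Figure D3:**
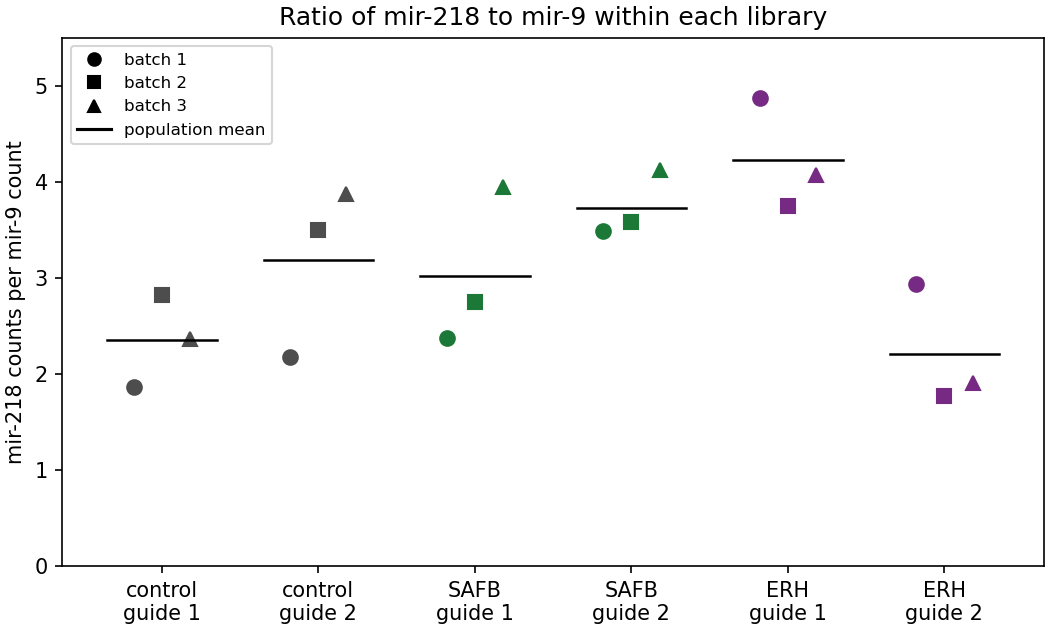
Counts of mir-218 per count of mir-9 in each library (linear axis from 0), by population; symbols are batches and bars are population means. ERH guide 1 lies between 3.75 and 4.88 and ERH guide 2 between 1.77 and 2.94, while the control and SAFB libraries lie between 1.86 and 4.13.

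Between ERH and SAFB, none of the 6 log2 ratios that can be formed from the 4 entries passed the test. The differences of means ran from -0.43 for mir-218 to mir-153 to 0.35 for mir-153 to mir-129, each with an adjusted p of 0.89 (exact two-sided permutation test over 924 arrangements of 6 against 6 libraries, 6 ratios adjusted together). For mir-9 to mir-218, the pair with the most counts, means were -1.59 ± 0.600 (SD, n = 6) in ERH and -1.73 ± 0.311 in SAFB, a difference of 0.14 with an exact permutation p of 0.63. The 5 ratios with mir-153 or mir-129 had SDs from 0.563 to 1.11 in either group, and hold entries that passed the filter through ERH libraries alone, so the ratio of mir-9 to mir-218 is the only one free of that selection.

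The profile over the 18 libraries was also set against those of all other tested entries, as the root-mean-square (RMS) difference of log2 CPM after each was centred on its own mean. Apart from mir-218, the entries nearest to mir-9 were mir-148a (RMS 0.393), mir-196a (0.424) and mir-196b (0.458), against a median of 2.14 over all entries. Apart from mir-9, those nearest to mir-218 were mir-10a (0.420), mir-148a (0.475) and mir-196b (0.527). mir-10a, mir-196a and mir-196b lie in the Hox gene clusters, and mir-148a is known from liver and B cells. mir-9 and mir-218 were themselves 0.434 apart, so each was about as near to these entries as to the other.

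For mir-153 the nearest were mir-196a (0.645), mir-125b (0.668) and mir-182 (0.671). Apart from mir-9, at 0.805, those nearest to mir-129 were mir-708 (0.685), mir-196a (0.788) and mir-342 (0.876). mir-182 belongs to a cluster typical of sensory cells, and mir-708 is abundant in brain. The rare entries were farther from all others, and their profiles hold more counting noise. All of these values share libraries and are a description.

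**Figure D4:**
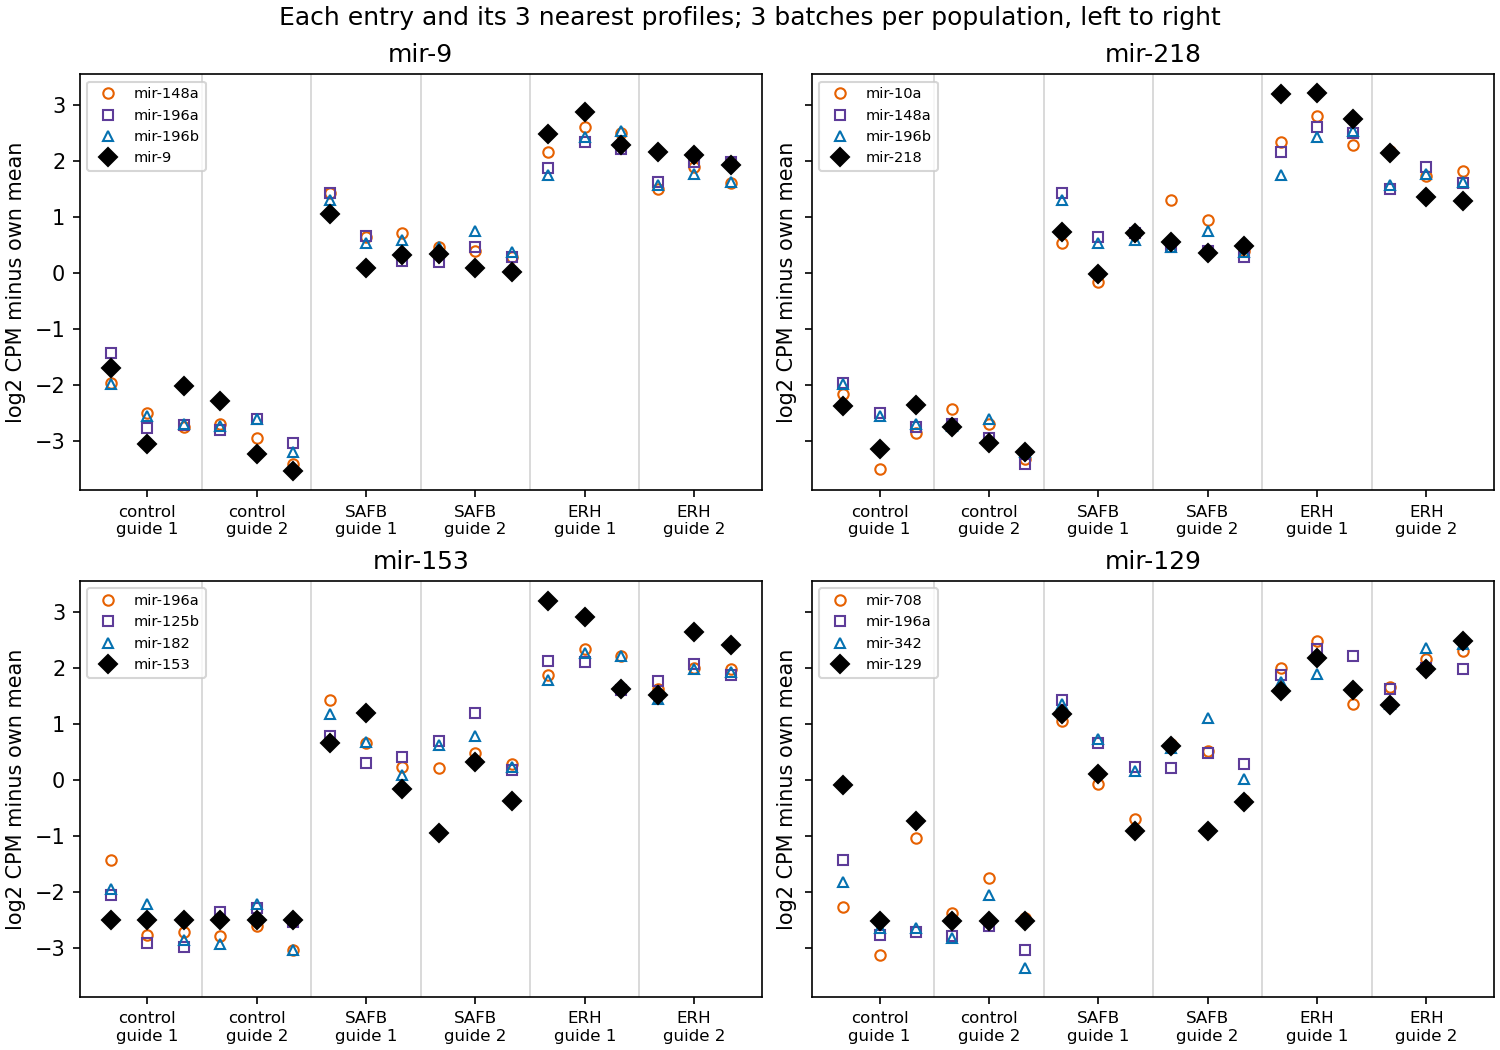
Log2 CPM minus the entry's own mean in each of the 18 libraries. Shown are each of the 4 entries (black) and the 3 entries nearest to it outside the 4. Within a population the 3 points are batches 1 to 3. The genotype means of all rise in steps from control over SAFB to ERH. Single libraries overlap between control and SAFB for mir-129, and between SAFB and ERH for mir-342. In the ERH guide 1 libraries mir-218 lies above its neighbours, and in 2 of the 3 ERH guide 2 libraries it lies below them.

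The 8 different neighbours were all called higher in ERH than in SAFB, with log2 fold changes from 1.22 for mir-342 to 1.75 for mir-708, beside 23.8% of all entries. They had been picked for profiles that rise from SAFB to ERH, so this count was fixed by the choice. mir-148a was at 26.0 ± 8.91 CPM (SD, n = 6) in control, 266.4 ± 87.0 in SAFB and 701.2 ± 219.3 in ERH, with a log2 fold change of 1.40 from SAFB to ERH (SE 0.216, adjusted p = 1.8e-05, edgeR). mir-10a was at 32.0 ± 11.2, 348.6 ± 116.5 and 1018 ± 285.0 CPM, with a log2 fold change of 1.55 (SE 0.222, adjusted p = 9.0e-06). Against the 1.98 of mir-9 and 2.03 of mir-218, the difference was tested on ratios within libraries, with neighbours that had been chosen on the same libraries.

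From SAFB to ERH, the log2 ratio of mir-9 to mir-148a was 0.60 higher, and that to mir-196b 0.72 higher (both adjusted p = 0.013, exact permutation test, 6 against 6 libraries, 6 ratios adjusted together). These ratios were not planned, and the neighbours had been picked on the same libraries, so the p-values are a description. The ratio to mir-196a was 0.53 higher (adjusted p = 0.039), which became 0.056 when permuted within batches and 0.078 when any of 7 of the 12 libraries, such as batch 1 of SAFB guide 1, was left out. In batches 1, 2 and 3 the difference to mir-148a was 0.74, 0.67 and 0.39. That to mir-196b was 0.86, 0.95 and 0.35, and that to mir-196a was 0.70, 0.80 and 0.090. When any 1 population was left out, which leaves 6 against 3 libraries, the differences were 0.47 to 0.74 to mir-148a, 0.67 to 0.77 to mir-196b and 0.43 to 0.63 to mir-196a. The adjusted p-values were then between 0.057 and 0.24.

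For mir-218 the ratios differed by 0.28 to mir-10a, 0.46 to mir-148a and 0.58 to mir-196b, with adjusted p-values of 0.34, 0.17 and 0.14 in the same exact permutation tests. Without the ERH guide 2 population they were 0.72, 0.81 and 1.01, each with an adjusted p of 0.048. In batch 3 all 3 ratios differed the other way, by -0.086, -0.15 and -0.19. Whether these ratios passed the test thus depended on the ERH guide 2 population. The neighbours of mir-218 had also been picked on these libraries, so these p-values are a description as well.

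Of 28 other brain-enriched miRNAs listed, 25 had an entry, 8 of these were at 0 in all 18 libraries and 11 passed the filter. In SAFB 4 of the 11 rose and 1 fell against control, and in ERH 4 rose and 2 fell. Over all entries 30.8% rose and 25.3% fell in SAFB, and 26.4% rose and 27.5% fell in ERH. The list's rises were somewhat above these shares and its falls below them, from only 11 entries. The rises include mir-149 and mir-708, which passed the filter through knockout libraries. For this pair a rise was built in, so nothing about the list is read from its counts. The median log2 fold change of the 11 was 0.21 in SAFB and 0.047 in ERH, against 0.0083 and -0.061 over all entries. With total counts the list's medians were 0.25 and 0.36, and with spike-ins -0.080 and 0.37, where those over all entries were 0.043 and 0.24, and -0.23 and 0.23. The number that rose was 6 in ERH with total counts and 3 in SAFB with spike-ins. With total counts or spike-in scaling, none of the 11 was called lower in ERH, and without the batch 1 library of SAFB guide 1 the count that fell in SAFB was 2.

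The 4 that rose in both knockouts were mir-149, mir-708, mir-132 and mir-128. mir-149 went from 0.423 ± 0.574 CPM (SD, n = 6) in control to 5.38 ± 2.11 in SAFB and 13.9 ± 2.92 in ERH, a log2 fold change of 4.93 in ERH (adjusted p = 1.3e-09, edgeR). With at most 5 counts in a control library it had passed the filter through knockout libraries, so a difference from control was built in. mir-708 went from 1.87 ± 1.07 to 9.95 ± 4.53 and 33.3 ± 9.10 CPM, 4.18 in ERH (adjusted p = 2.3e-10). It too had passed the filter through knockout libraries, so the same limit holds for it. The abundant ones changed far less: mir-132, which is induced by neuronal activity, was 0.90 higher in ERH (adjusted p = 1.7e-05) and mir-128 0.26 higher (adjusted p = 0.0055). Between ERH and SAFB, mir-149 and mir-708 differed too, at 1.36 and 1.75 higher in ERH, while mir-132 and mir-128 were not called in that comparison.

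mir-219a, known from oligodendrocytes, fell by 0.40 in SAFB and by 0.33 in ERH on the log2 scale (adjusted p = 0.0014 and 0.0055, edgeR). mir-598 fell by 0.44 in ERH (adjusted p = 2.7e-05); with total counts or spike-ins neither was called lower in ERH. mir-7a, the most abundant entry of the list, was at 5264 ± 562.9 CPM (SD, n = 6) in control, 6071 ± 1050 in SAFB and 5293 ± 831.7 in ERH and was not called in either. mir-138 and mir-338 were not called either.

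The most defining brain miRNA, mir-124, had 0 counts in every control library, at most 2 in a SAFB library and at most 6 in an ERH library. mir-137, mir-134, mir-344, mir-346, mir-383, mir-384, mir-433 and mir-448 were the 8 at 0 in all libraries. The other rare entries did not share 1 order. mir-488 had 0 in control, at most 1 in a SAFB library and at most 10 in an ERH library, and mir-874 had 0 in control, at most 3 in SAFB and 3 to 11 in ERH. mir-212 was highest in control, with 1 to 7 counts against at most 2 in SAFB and 3 in ERH, mir-219b had 2 to 9, 6 to 12 and 0 to 15 counts, and mir-873a had at most 2, 0 and 1. The summed level of the 25 entries was 7333 to 8802 CPM in control, 7780 to 11030 in SAFB and 7291 to 9539 in ERH, with mir-7a and mir-128 making up most of it in every genotype. A sum led by entries that control cells express would not show small amounts of RNA from other cells. The part of RNA from other cells in the levels of mir-9, mir-218, mir-153 and mir-129 was not tested.

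Other lists hold several of the nearest profiles. All 5 entries of Hox clusters (mir-10a, mir-10b, mir-196a, mir-196b and mir-615) rose in both knockouts and were higher in ERH than in SAFB, beside 30.8%, 26.4% and 23.8% of all entries, with median log2 fold changes of 3.46, 4.69 and 1.29. The 3 of the sensory cluster, mir-182, mir-183 and mir-96, did the same beside those shares, with medians of 3.20, 4.62 and 1.32. Of the mir-148 family, mir-148a and mir-152 rose in both while mir-148b, at 4200 ± 160.7 CPM (SD, n = 6) in control, fell by 0.21 in SAFB. mir-615, mir-96 and mir-152, with at most 6 counts in a control library, had passed the filter through knockout libraries. These lists were set with earlier results of the same libraries known, and their counts are not independent of those results.

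Markers of other cell types gave the following levels; their counts stand beside 30.8% of all entries called higher and 25.3% lower in SAFB, and 26.4% and 27.5% in ERH. The blood list, led by mir-142a, summed to 150720 to 177101 CPM in control, 155024 to 172207 in SAFB and 126885 to 159314 in ERH. Of its 7 tested entries 2 rose and 3 fell in SAFB, and 1 rose and 4 fell in ERH. mir-122 of liver rose in ERH, from 6.78 ± 1.64 to 17.1 ± 10.4 CPM (SD, n = 6, adjusted p = 0.0019, edgeR). Of muscle, 2 of 8 entries were tested, neither was called, and mir-133b, mir-206 and mir-208a were at 0 everywhere. Of 5 tested epithelial entries 3 rose in SAFB and none was called in ERH, with sums of 145.3 to 202.6 CPM in control, 196.1 to 224.9 in SAFB and 150.1 to 184.6 in ERH. Of the endothelial pair mir-126a fell in both knockouts, and of 3 tested entries of fibroblasts and smooth muscle 1 rose in SAFB and none was called in ERH. The 1 tested entry typical of pluripotent cells, mir-302b, was at 2.68 ± 0.639 CPM (SD, n = 6) in control, 2.41 ± 0.774 in SAFB and 0.873 ± 0.515 in ERH; no ERH library had enough counts to pass it through the filter, so a lower ERH level was built in. Of the 4 pancreas entries 1 was tested, mir-375, which passed the filter through knockout libraries alone. It was at 0.278 ± 0.528 CPM (SD, n = 6) in control, 2.23 ± 1.59 in SAFB and 4.80 ± 2.01 in ERH. Their part in the levels of the 4 entries was not tested.

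Library totals ran from 2699323 to 4470073 miRNA counts, and the TMM factors of all 6 ERH libraries were above 1 and those of all others below it. Libraries of the same population were not copies of each other, since their counts differed by 27.5 to 157.1 times the chi-square that sampling noise gives per degree of freedom.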

How the data were processed

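The deposited values are unnormalized whole-number read counts per miRNA precursor and per spike-in, 1006 and 4 rows, for 18 libraries. The authors mixed total RNA with 4 synthetic small RNAs and used a QIAseq kit, per the labels' protocols. SAMtools is named in the submitters' processing notes; aligner, counter, build, strand, arm assignment, reads matching several entries and molecular identifiers are not given in the sources used here, and PCR copies would make counting intervals too narrow. Spike-ins stayed out of library sizes and tests.

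Counts were kept by filterByExpr (minimum count 10, by population), scaled by TMM and tested in edgeR 4.0.16 (limma 3.58.1, R 4.3.3) with the quasi-likelihood test, 1 mean per genotype, or per population for guides, with Benjamini-Hochberg adjustment over 273 entries. The scripts were tested on simulated data. Ratios used a pseudocount of 0.5 and exact two-sided permutation in scipy 1.17.1, profiles a prior count of 0.5. Intervals are exact at 95% and cover counting error only. Hairpins were folded with ViennaRNA 2.7.2; positions are from RefSeq and GENCODE M21 annotation. Alternatives were DESeq2 1.42.0, other scalings, no filter, batch as a replicate block, and leaving out libraries, batches or populations.

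The batch label is shared between libraries of different populations, so batches could pair them. Deviations from population means correlated at a mean of 0.0243 over 45 pairs of the same batch and -0.0123 over 90 pairs of different batches. The 4 entries and all lists were chosen with earlier results of these data known. Named were the 4 entries, the 3 nearest profiles of each outside the 4, and, of each list, up to 6 tested entries by mean CPM. Other names were chosen after their values were seen.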

Additional observations from a re-analysis of the deposited data

Results flagged for a closer look

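mir-9 in the batch 1 library of SAFB guide 1 stood apart from the other SAFB libraries, at 106.8 CPM against 51.6 to 64.4 CPM. Its gap to the next library was 0.697 of the range of the 6 libraries on the log2 scale, where 0.625 is the limit that chance passes in about 1 of 20 such groups. It was the 1 case among 13 groups tested, so 1 such case is near what chance gives. The same library was the highest of the SAFB libraries for mir-218 and mir-129 and for 6 of the 8 entries of nearest profile, among them mir-148a (436.6 CPM) and mir-196a (156.9 CPM); the cause was not tested. Without it the log2 fold change of mir-9 from SAFB to ERH was 2.16, where all libraries gave 1.98.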

How the results depend on the processing

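With batch as a replicate block, mir-218 differed between the ERH guides by -1.46 (adjusted p = 0.00019, edgeR), and the block changed no call of the 4 entries. ERH against SAFB, mir-9 kept its call in every alternative run, and mir-218 in all but batch 3 alone (1.58). mir-153 was at 2.67, 2.04 and 2.57 and mir-129 at 0.58, 2.60 and 3.02 within batches 1, 2 and 3 alone, uncalled; both entered the test through ERH libraries, so calls kept or lost say nothing of their stability. Within these batches 27, 56 and 35 entries were called, from 4 libraries in place of 12. Leaving out libraries or batches gave 1.46 to 2.78 for mir-129, and between ERH guides -1.67 to -1.22 for mir-218 and 0 to 2 calls. Between ERH guides 110 entries were called with spike-in scaling and 4 without a filter, between control guides 96 with spike-ins, and ERH against control 91 with spike-ins, where TMM called 147; the cause was not tested.

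Against control, on the log2 scale, mir-9 was at 3.40 in SAFB and 5.36 in ERH and mir-218 at 3.56 in SAFB without control guide 1. The other control libraries then had 0 counts of mir-153 and mir-129, so only ratios with 3 counts in place of 0 remain. They were 1.45 and 3.81 for mir-153 and 1.29 and 3.20 for mir-129 in SAFB and ERH. Without control guide 2 such ratios of mir-153 were 1.54 and 3.90, lower than with all controls because the same 3 counts are set against fewer libraries. The ratios of mir-129, from 3 control counts in fewer libraries, were 1.37 and 3.29. Without ERH guide 1, mir-218 was at 4.43 in ERH.

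In 28 cases an uncalled value changed sign and stayed uncalled. Spike-in scaling gave 0.11 for mir-9 and 0.15 for mir-153 between ERH guides and 0.24 for mir-218 between control guides. Leaving out a batch gave -0.92 to 0.12 for mir-153 and -0.24 to 0.43 for mir-129 between ERH guides, and -0.16 to 0.064 for mir-218 between SAFB guides. Among ratios of ERH against SAFB, a pseudocount of 1 gave 0.11 for mir-218 to mir-129, and none gave -0.20 for mir-9 to mir-129. Without SAFB guide 2, mir-9 to mir-218 was -0.028, mir-218 to mir-153 0.027 and mir-218 to mir-129 0.096. Without ERH guide 1, mir-9 to mir-129 was -0.25 and mir-218 to mir-10a -0.16. Without ERH guide 2, mir-9 to mir-218 was -0.35, mir-218 to mir-153 0.11 and mir-218 to mir-129 0.71. Leaving out single libraries gave -0.0013 to 0.56 for mir-153 to mir-129, -0.31 to 0.25 for mir-218 to mir-129, -0.072 to 0.26 for mir-9 to mir-129 and -0.014 to 0.28 for mir-9 to mir-218. Depth limits mir-153 and mir-129, which had 1 to 28 counts in knockout libraries.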
